A study of Mus musculus with 10 samples.

Results

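The semaphorin, ephrin, Slit and netrin guidance genes are the ligands and receptors of 4 signalling systems that steer growing axons and sprouting vessels. They were taken from the count files by symbol: the class 3 to 7 semaphorins, the plexins, the ephrins and Eph receptors, Slit1 to Slit3, Robo1 to Robo4, the netrins and the Unc5 receptors. This gave 66 genes of the 24538 counted, 35 ligands and 31 receptors. Their transcripts were measured by RNA sequencing of CD31+/CD45- cells, a gate meant to hold endothelial cells (CD31) and to leave out leukocytes (CD45). There were 5 libraries from normal lung and 5 from lung metastases, all from wild type C57BL6/J mice with an age tag of 8 to 10 weeks. The metastases came from the mouse mammary tumour line E0771-LG, injected into the tail vein of females of 6 to 8 weeks. Nodules under 1 mm in diameter were cut out and pooled from 2 to 4 mice, while normal lungs went through the same steps in parallel. All tissue was digested for 30 min at 37 °C with the transcription inhibitors alpha-amanitin and actinomycin D. The labels do not say whether all libraries came from separate animals, so p-values measure the spread between these libraries, which may be technical.

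Semaphorins are secreted or membrane-bound proteins that act through plexins. The secreted class 3 members mostly need a neuropilin as coreceptor. Ephrins are membrane-anchored ligands of the Eph receptor tyrosine kinases, and in vessels ephrin-B2 marks arteries while its receptor EphB4 marks veins. Slits are secreted ligands of Robo receptors, of which Robo4 is found mainly in endothelium. Netrins are laminin-related proteins that act through Dcc, neogenin and Unc5 receptors, and Unc5b is the member best known from vessels.

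Most guidance genes that passed the test were lower in metastases. Of the 66, 37 (56.1%) had enough counts to be tested, and of these 12 fell (32.4%) and 2 rose (5.41%) by edgeR (adjusted p threshold 0.05, TMM scaling, which sets each library's scale from the bulk of its genes). Over all 11823 tested genes 8.22% fell and 12.0% rose, 20.2% in either direction. The median log2 fold change of the 37 was -0.62, against 0.06 over all tested genes. The falls lay among semaphorins (6), plexins (2), ephrin-B ligands (2), EphB4 and Robo4, and both rises were semaphorins. No tested ephrin-A, EphA, Slit, netrin or Unc5 gene was called in either direction, of 1, 3, 2, 3 and 2 tested, and by edgeR none of them had an unadjusted p under 0.05 (DESeq2 called none either). In 7 of the 37 every metastasis library lay below every normal one, where 6.17% of all tested genes did so, and in 2 every metastasis library lay above, where 8.50% did. Ligands made 8 of the falls and both rises among 21 tested (median -1.02), and receptors made 4 falls and no rise among 16 (median 0.24), although DESeq2 called Plxna3 and Plxnb2 higher. In bulk RNA fewer cells of a type and less RNA per cell cannot be told apart, and a direction here is one against most other genes. When pan-endothelial genes set the scale instead, which put the median of all tested genes at 2.85, none of the 12 passed the test as a fall, 7 of them turned positive, and 1 of these, Plxna1, passed as a rise.

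**Figure D1:**
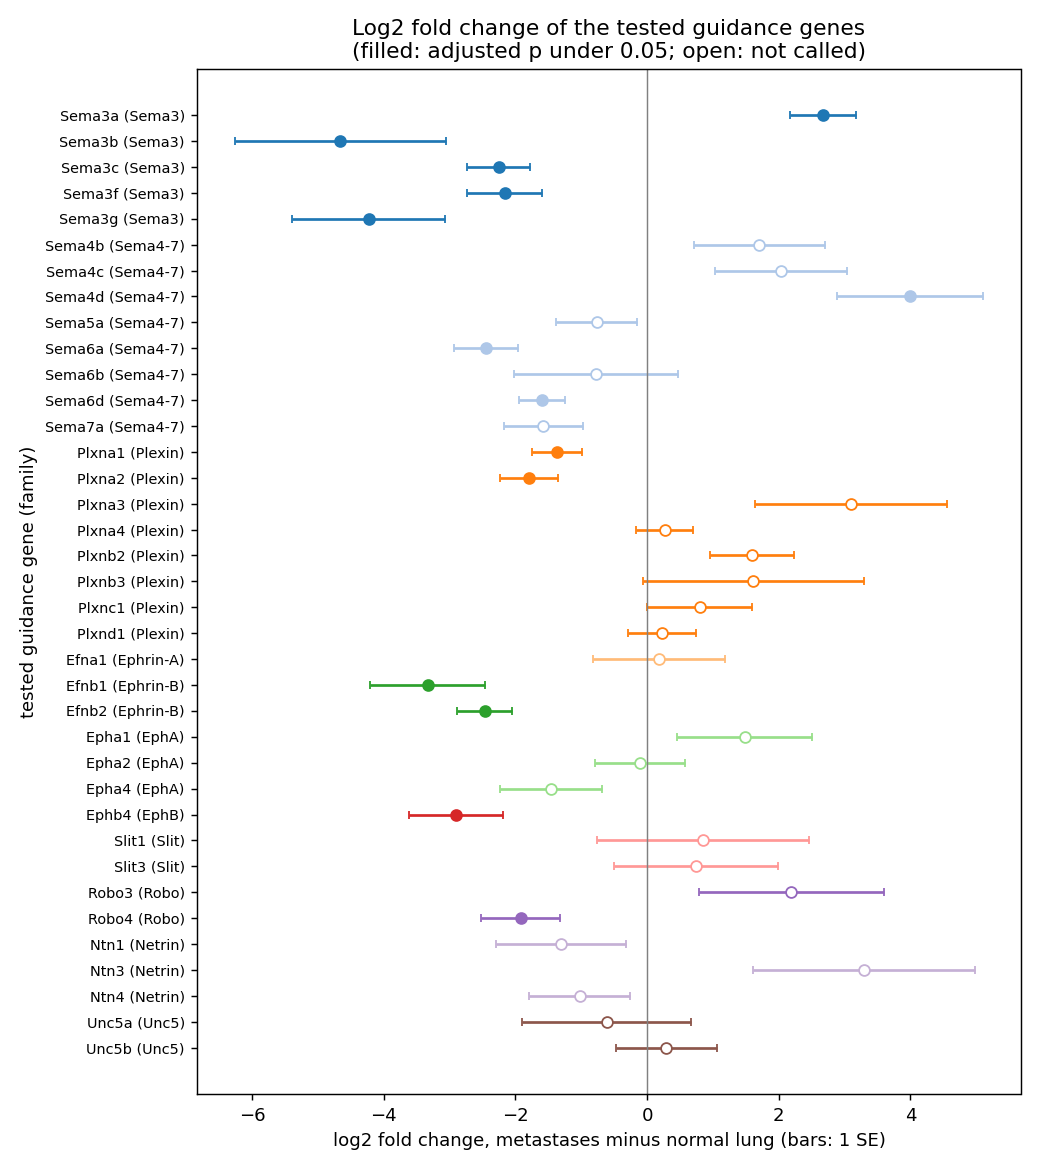
Log2 fold change (metastases minus normal lung, TMM scaling) of the 37 tested guidance genes, by family, with bars of 1 SE. Filled points passed the adjusted p threshold, and open points did not. The 12 filled points left of 0 include 4 of the 5 class 3 semaphorins, and the widest bars, those of Sema3b, Ntn3, Plxnb3 and Slit1, mark the least precise values. With pan-endothelial scaling Sema3c, Sema3f, Sema6d, Plxna1, Plxna2, Efnb2 and Robo4 turned positive.

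Counts assigned to genes ranged from 41 to 79.71 M in normal lung and from 21.68 to 54.27 M in metastases. A count of 3 in 1 library, used as the detection floor, equals 0.0359 to 0.149 CPM (counts scaled to library depth, with TMM factors), a limit from counting error only. Pan-endothelial genes were present in every library but at lower levels in metastases: the summed level of 21 was 15259 to 28133 CPM in normal lung and 1265 to 7822 CPM in metastases, and 18 fell. Relative to the normal mean, the pan-endothelial level of metastasis replicates 1 to 5 was 28.7, 23.1, 16.8, 8.66 and 6.03%. Pecam1, the gene of CD31, fell (log2 fold change -1.91 ± 0.47 SE, adjusted p = 0.00549), as did Cdh5 (-2.18), and Ptprc, the gene of CD45, rose (log2 fold change 2.77 ± 0.57 SE, adjusted p = 0.0012). Log2 fold changes of the leading genes and the summed CPM of the other lists follow, with normal lung first. Fibroblast genes, led by Fn1 (4.19) and Col3a1 (3.87), rose in 6 of 7 tested, with sums of 46.6 to 89.8 and 488 to 2398 CPM, with Tcf21 at 0 throughout. Macrophage genes, led by Lyz2 (3.93) and Itgam (5.31), rose in 6 of 9, with sums of 48.0 to 212 and 1026 to 1969 CPM. Proliferation genes, led by Top2a (5.61) and Mki67 (4.11), rose in 10 of 10, with sums of 25.6 to 138 and 1604 to 3625 CPM. Leukocyte genes, with S100a8 (6.80) beside Ptprc, rose in 2 of 4, with sums of 8.21 to 33.7 and 106 to 208 CPM, with Cd79a and Flt3 under 1 CPM in every library. Platelet genes, led by Ppbp (3.27) and Gp1ba (2.43), rose in 3 of 6, with sums of 193 to 1134 and 733 to 13056 CPM. Epithelial and tumour-line genes, led by Scgb1a1 (-5.74) and Hopx (-2.24), had 1 rise (Krt8, a keratin of simple epithelia, 6.47, adjusted p = 0.000497, higher in every metastasis library) and 2 falls of 6, with sums of 99.8 to 837 and 43.2 to 176 CPM, with Krt5 at 0. Normal replicates 3 and 5 carried Scgb1a1, at 752 and 558 CPM. The other normal libraries were at 3.57 to 23.9 CPM and overlapped the metastases (3.40 to 7.10 CPM). Lymphatic genes, led by Lyve1 (-0.997, not called) and Flt4 (-3.03), had 1 rise and 1 fall of 4, with sums of 1086 to 1878 and 169 to 2340 CPM, with Ccl21a at 0. Mural genes, led by Myh11 (-2.46) and Pdgfrb (2.28), neither called, had 1 fall of 4, with sums of 9.07 to 68.9 and 12.5 to 72.7 CPM. The part of this cell makeup in the guidance results was not tested.

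Levels between genes were compared per transcript length, as FPKM (fragments scaled by transcript length and depth) from the authors' deposited table. Sema6a, a transmembrane ligand of class A plexins, had the highest mean level of the 66 in both groups, with 501 ± 118 FPKM for normal lung against 98.1 ± 94.5 FPKM for metastases (± is 1 SD over 5 libraries). Metastasis replicates 1 and 3 (179 and 221 FPKM) carried its mean in that group. In metastasis replicates 2, 4 and 5 it was at 36.1, 26.4 and 27.5 FPKM, below Plxnb2 (57.5), Plxna1 (49.7) and Sema3a (44.8) respectively. In normal lung Sema6a was followed by Efnb2 (185 ± 65.3), Sema6d (147 ± 37.1), Plxna1 (132 ± 28.01) and Robo4 (118 ± 25.4). Those neighbours lie within their spread of each other. In metastases the order after Sema6a was Plxna1 (56.7 ± 28.8), Sema6d (50.2 ± 19.6), Ntn4 (39.9 ± 56.7), Sema3a (39.5 ± 27.9) and Plxnb2 (38.4 ± 14.1), and these too overlapped within 1 SD. Sema3a ranked 22 of the 66 in normal lung and 5 in metastases, while Efnb2 went from 2 to 7 and Efnb1 from 11 to 22. Summed over all 66 genes, the level was 1559 to 2050 FPKM in normal lung and 377 to 1058 FPKM in metastases, without overlap. Most of that difference in sum lay in the class 4 to 7 semaphorins, at 554 to 826 FPKM against 84.2 to 361 FPKM. The plexins, at 180 to 282 FPKM and 139 to 205 FPKM, overlapped between groups.

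**Figure D2:**
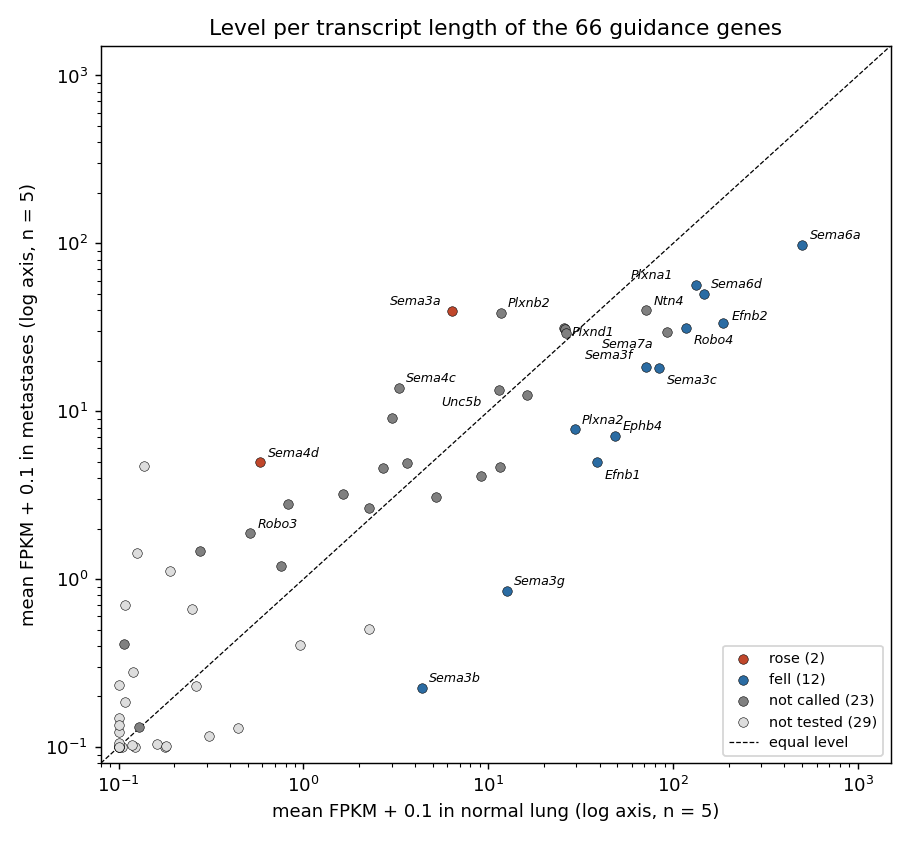
Mean level of the 66 guidance genes in normal lung (horizontal) and metastases (vertical), as FPKM + 0.1 on log axes, with the dashed line marking equal levels. Sema6a lies at the upper end of both axes, the genes that fell lie below the line, and Sema3a and Sema4d lie above it.

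The class 3 semaphorins, secreted ligands, split into 1 that rose and 4 that fell of 5 tested by edgeR, although Sema3c and Sema3f turned positive with pan-endothelial scaling. Sema3a (chromosome 5, 13125414 to 13602565, plus strand on GRCm38, the build of all positions given, which are from GENCODE M21), which signals through neuropilin-1 and class A plexins and collapses growth cones, was at 78.3, 26.5, 38.5, 75.2 and 105 CPM in normal lung replicates 1 to 5. In metastasis replicates 1 to 5 it was at 205, 154, 757, 396 and 543 CPM. Every metastasis library was above every normal one, the lowest being replicate 2. Sema3a rose 6.36-fold (log2 fold change 2.67 ± 0.50 SE, adjusted p = 0.000509).

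Sema3c (chromosome 5, 17574281 to 17730268, plus strand), a ligand needed for the cardiac outflow tract, moved the opposite way, from 461, 476, 583, 968 and 799 CPM in normal lung to 258, 132, 211, 38.7 and 50.6 CPM in metastases. The groups did not overlap, and metastasis replicates 4 and 5, which also had the least pan-endothelial RNA, were lowest. It fell 4.76-fold (log2 fold change -2.25 ± 0.48 SE, adjusted p = 0.00161), and without those 2 libraries the value was -1.75 (adjusted p = 0.0114). With pan-endothelial scaling it was at 0.0063.

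Sema3a and Sema3c belong to a group of 4 class 3 genes (Sema3d, Sema3a, Sema3e and Sema3c) that spans 5.35 Mb of chromosome 5. Sema3d and Sema3e, the ligand of plexin-D1, could not be tested. The promoter windows of the rising and the falling gene are shown because the neighbours moved in opposite directions. They are RefSeq sequences of 300 bases on GRCm38.p6, 5′ to 3′, from 250 bases before to 50 after the transcript start (chr5:13396534-13396833, plus strand for Sema3a and chr5:17574566-17574865, plus strand for Sema3c). The Sema3a window belongs to a start inside the gene model given above. Capitals mark 2 short motifs, CAGGAA (the core bound by ETS factors) and GGGCGG (the core bound by SP1), on either strand (TTCCTG and CCGCCC on the other).
Sema3a promoter: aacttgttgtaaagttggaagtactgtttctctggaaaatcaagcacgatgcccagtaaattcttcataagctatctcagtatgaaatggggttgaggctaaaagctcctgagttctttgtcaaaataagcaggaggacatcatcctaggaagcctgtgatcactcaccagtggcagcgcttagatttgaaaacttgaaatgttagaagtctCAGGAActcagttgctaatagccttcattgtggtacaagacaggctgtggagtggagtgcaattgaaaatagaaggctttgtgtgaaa
Sema3c promoter: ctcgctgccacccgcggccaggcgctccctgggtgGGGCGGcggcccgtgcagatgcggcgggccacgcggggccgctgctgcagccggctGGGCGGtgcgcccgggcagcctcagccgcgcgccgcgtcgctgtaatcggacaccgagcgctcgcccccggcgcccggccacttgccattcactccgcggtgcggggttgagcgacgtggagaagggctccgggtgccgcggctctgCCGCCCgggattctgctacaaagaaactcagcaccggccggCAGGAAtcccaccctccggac

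The Sema3a window held 1 match to CAGGAA and none to GGGCGG, with 41.3% G and C and 2 CG pairs, and the Sema3c window held 1 and 3 matches, with 75.7% G and C and 42 CG pairs. Windows were found for 57 of the 66 genes, among them 10 of the 14 called. CAGGAA was in 16 of the 57 (28.1%) and in 33.4% of the 27025 genes with a window. GGGCGG, which itself contains a CG pair, was in 42 of the 57 (73.7%) and in 38.2% of all genes. By call, GGGCGG was in 6 of 8 genes that fell, 1 of 2 that rose and 19 of 20 that were tested and not called.

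Sema3f (chromosome 9, 107681500 to 107710475, minus strand), a ligand with a preference for neuropilin-2, was at 323, 213, 63.5, 96.4 and 80.1 CPM in normal lung and 35.5, 46.0, 53.4, 19.7 and 18.9 CPM in metastases. The groups did not overlap, but normal replicates 1 and 2 stood above replicates 3 to 5. It fell 4.48-fold (log2 fold change -2.16 ± 0.57 SE, adjusted p = 0.00864), and -1.81 (adjusted p = 0.0679) was left without metastasis replicates 4 and 5. Its neighbour Sema3b (chromosome 9, 107597674 to 107609229, minus strand), 72270 bases away, was much lower, at 0.122, 1.73, 30.1, 3.60 and 3.97 CPM and 0.102, 0.505, 0.0992, 0.0290 and 0.811 CPM. Normal replicate 3 carried most of the Sema3b signal, and normal replicate 1 lay within the metastasis range. The Sema3b call (log2 fold change -4.66 ± 1.603 SE, adjusted p = 0.0416) was lost without normal replicate 3 (-2.94, adjusted p = 0.234) and without metastasis replicate 1, 2, 3 or 4 (adjusted p 0.0562 to 0.0818). It was also lost with library totals, both limma fits on FPKM, the replicate block and the term for library sets (adjusted p 0.0657 to 0.171), and without metastasis replicates 4 and 5 (adjusted p = 0.101).

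Sema3g (chromosome 14, 31217860 to 31230352, plus strand), a class 3 member made by arterial endothelium, was at 28.8, 142, 1.98, 9.31 and 3.75 CPM in normal lung and 0.880, 3.98, 1.74, 2.44 and 0.846 CPM in metastases. Normal replicate 2 stood far above the rest, and normal replicates 3 and 5 lay among the metastasis libraries. The fall of 18.7-fold (log2 fold change -4.22 ± 1.16 SE, adjusted p = 0.0114) was lost without normal replicate 2 (-2.50, adjusted p = 0.189). It was also lost with both limma fits on FPKM, the replicate block and the term for library sets (adjusted p 0.0575 to 0.0767), and without metastasis replicates 4 and 5 (adjusted p = 0.0585).

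Among the membrane-bound semaphorins of classes 4 to 7, 1 rose and 2 fell of 8 tested, of which Sema6d turned positive with pan-endothelial scaling. Sema6a (chromosome 18, 47235598 to 47368870, minus strand) was at 3435, 2074, 3827, 2909 and 3711 CPM in normal lung replicates 1 to 5. In metastases it was at 1093, 286, 1162, 178 and 203 CPM, with replicates 1 and 3 several times above the others and all 5 below the lowest normal library. It fell 5.46-fold (log2 fold change -2.45 ± 0.48 SE, adjusted p = 0.000845), and kept the call without each library in turn (adjusted p 0.000256 to 0.00403).

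Sema6d (chromosome 2, 124089969 to 124667770, plus strand), a ligand of plexin-A1, was among the most even members within groups, at 804, 856, 909, 1207 and 876 CPM in normal lung and 409, 332, 392, 233 and 177 CPM in metastases. The groups did not overlap. It fell 3.02-fold (log2 fold change -1.59 ± 0.35 SE, adjusted p = 0.0022), with values of -1.74 to -1.46 without each library in turn.

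Sema4d (chromosome 13, 51685529 to 51793747, minus strand), the ligand CD100 of plexin-B1 that is also abundant on T cells, was low in normal lung, at 0.398, 3.65, 0.447, 2.16 and 1.43 CPM. In metastases it was at 11.9, 76.8, 20.7, 10.9 and 8.95 CPM. All metastasis libraries were above all normal ones, and replicate 2 was the highest. The rise of 15.9-fold (log2 fold change 4.00 ± 1.11 SE, adjusted p = 0.0121) was lost without metastasis replicate 2 (3.01, adjusted p = 0.0817). Ptprc and the leukocyte and macrophage lists rose in the same libraries, and their part in the Sema4d rise was not tested. Its receptor gene Plxnb1 could not be tested.

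The other 5 tested members of classes 4 to 7 were not called. Sema7a, a membrane-anchored ligand of plexin-C1 and of integrins, was at 478, 211, 61.6, 124 and 93.7 CPM in normal lung and 117, 111, 50.3, 33.0 and 14.6 CPM in metastases. Normal replicate 1 was the highest, and normal replicates 3 and 5 lay inside the metastasis range. The Sema7a value (log2 fold change -1.58 ± 0.60 SE, adjusted p = 0.0681) passed the test without normal replicate 3 (-1.83, adjusted p = 0.0397) or metastasis replicate 1 (-1.92, adjusted p = 0.0364). It also passed as a fall in 5 of the 14 other settings: no filter on low counts, limma on log2(FPKM + 1) and on log2(FPKM + 0.1), the replicate block and the term for library sets (adjusted p 0.0143 to 0.0344). Sema4b (1.70 ± 0.99 SE) and Sema4c (2.04 ± 1.00 SE), class 4 ligands, had positive log2 fold changes, and Sema5a (-0.76 ± 0.61 SE) and Sema6b (-0.78 ± 1.24 SE) had negative ones, at adjusted p of 0.255, 0.168, 0.432 and 0.72. Sema4c was at 0.965 to 15.5 CPM in normal lung and at 4.20 to 57.7 CPM in metastases, and DESeq2 called it (2.10, adjusted p = 0.0454). Its groups overlapped, as did those of the other 3.

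**Figure D3:**
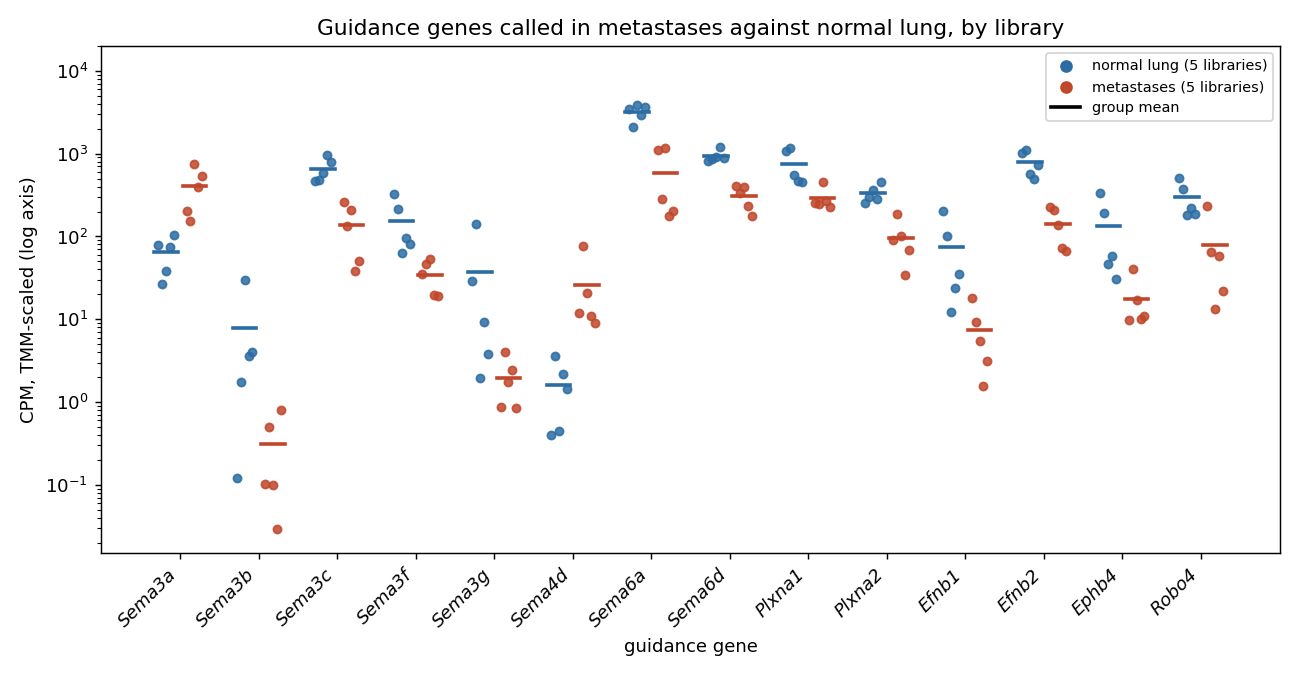
Level of the 14 called guidance genes in each library, as TMM-scaled CPM on a log axis, with points for the 5 normal lung and 5 metastasis libraries in replicate order and a line at each group mean. Sema3a and Sema4d are higher in every metastasis library, 7 genes are lower in every one, and Sema3b, Sema3g, Efnb1, Ephb4 and Robo4 overlap. With pan-endothelial scaling none of the 12 lower genes kept its call.

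The plexins, the semaphorin receptors, had 2 falls and no rise of 8 tested by edgeR. At an unadjusted p under 0.05 there were 4, the 2 falls and the higher values of Plxna3 and Plxnb2, both of which DESeq2 called. Both falls turned positive with pan-endothelial scaling. Plxna1 (chromosome 6, 89316314 to 89362620, minus strand), a class A receptor that works with neuropilins and binds Sema6d, was at 1082, 1173, 549, 470.4 and 460.4 CPM in normal lung. In metastases it was at 251, 246, 453, 270.2 and 226 CPM. Normal replicates 1 and 2 were about level with each other and well above replicates 3 to 5, and metastasis replicate 3 came close to the lowest normal library without reaching it. Plxna1 fell 2.58-fold (log2 fold change -1.37 ± 0.38 SE, adjusted p = 0.0127). Within libraries 1 and 2 alone the value was -2.16 (adjusted p = 0.0264), within libraries 3 to 5 alone -0.66 (adjusted p = 0.29), and without metastasis replicates 4 and 5 -1.27 (adjusted p = 0.0639).

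Plxna2 (chromosome 1, 194618218 to 194816869, plus strand), a receptor of Sema6a, was at 251, 297, 369, 285 and 454 CPM in normal lung and 91.4, 184, 101, 34.5 and 67.8 CPM in metastases. Here all normal libraries were above all metastasis libraries, of which replicate 2 was highest. It fell 3.46-fold (log2 fold change -1.79 ± 0.44 SE, adjusted p = 0.00522), and leaving out each library in turn gave -2.17 to -1.59.

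Plxnb2, a class B receptor of class 4 semaphorins, was at 81.4, 71.2, 82.8, 25.5 and 4.16 CPM in normal lung and 163, 311, 70.1, 81.5 and 172 CPM in metastases. Normal replicate 5 was far below the rest, and metastasis replicates 3 and 4 lay within the normal range. Its value (log2 fold change 1.59 ± 0.63 SE, adjusted p = 0.0792) passed the test without metastasis replicate 3 (1.77, adjusted p = 0.0463) and with DESeq2 (1.64, adjusted p = 0.0466). It also passed with library totals, both limma fits on FPKM, the replicate block and pan-endothelial scaling (1.83 to 4.40). Plxnd1, the endothelial receptor of Sema3e, was at 176, 128, 90.5, 141 and 42.6 CPM and 137, 296, 47.2, 117 and 78.4 CPM, with overlapping groups. Its log2 fold change was 0.22 ± 0.52 SE (adjusted p = 0.813), and that of Plxna4, another class A receptor at 154 to 489 and 188 to 664 CPM, was 0.27 ± 0.43 SE (adjusted p = 0.719). Plxnc1, the Sema7a receptor, was at 4.99 to 66.5 CPM in normal lung and 5.75 to 97.2 CPM in metastases (0.80 ± 0.79 SE, adjusted p = 0.541). Plxna3 (3.10 ± 1.46 SE, adjusted p = 0.144; with DESeq2 3.08, adjusted p = 0.0389) and Plxnb3 (1.62 ± 1.67 SE, adjusted p = 0.561) were at or below 23.3 CPM in every library.

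Both tested ephrin-B ligands fell, and Efnb2 was at 0.042 with pan-endothelial scaling. Efnb2 (chromosome 8, 8617434 to 8661242, minus strand), the arterial ligand, was at 1015, 1120.1, 571, 497 and 725 CPM in normal lung replicates 1 to 5. In metastases it was at 226, 206, 137, 73.4 and 67.5 CPM. All 5 metastasis libraries lay below the lowest normal library, and replicates 4 and 5 were lowest. It fell 5.53-fold (log2 fold change -2.47 ± 0.42 SE, adjusted p = 0.000216), and was the only called member that passed the test both in libraries 1 and 2 alone (-2.29, adjusted p = 0.0196) and in libraries 3 to 5 alone (-2.71, adjusted p = 0.00207).

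Efnb1 (chromosome X, 99136130 to 99148991, plus strand), the related ligand on the X chromosome, was at 202, 102, 12.2, 24.0 and 35.6 CPM in normal lung and 17.97, 9.15, 5.41, 1.57 and 3.17 CPM in metastases. Normal replicates 1 and 2 were several times above replicates 3 to 5, and normal replicate 3 lay below the highest metastasis library. The fall of 10.1-fold (log2 fold change -3.33 ± 0.88 SE, adjusted p = 0.0083) was lost without normal replicate 1 (-2.57, adjusted p = 0.0645), without metastasis replicates 4 and 5 (-2.80, adjusted p = 0.0584) and in libraries 3 to 5 alone (-2.84, adjusted p = 0.107).

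Ephb4 (chromosome 5, 137350109 to 137378669, plus strand), the venous receptor of ephrin-B2, was the 1 EphB gene tested, at 333, 194, 46.9, 58.8 and 30.5 CPM in normal lung and 9.81, 40.4, 17.3, 10.2 and 10.96 CPM in metastases. Normal replicates 1 and 2 again stood above replicates 3 to 5, and metastasis replicate 2 lay above normal replicate 5. It fell 7.48-fold (log2 fold change -2.90 ± 0.71 SE, adjusted p = 0.00474), from -3.37 (adjusted p = 0.0146) in libraries 1 and 2 alone to -1.84 (adjusted p = 0.15) in libraries 3 to 5 alone. The gene model of Ephb4 overlaps that of Zan on the other strand. Whether counting used the strand is not stated, so reads from the overlap of the 2 genes may not be told apart.

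The promoter windows of this ligand and receptor are shown together because both genes fell (chr8:8661193-8661492, minus strand for Efnb2 and chr5:137349859-137350158, plus strand for Ephb4, GRCm38.p6, RefSeq, with the same capitals as above).
Efnb2 promoter: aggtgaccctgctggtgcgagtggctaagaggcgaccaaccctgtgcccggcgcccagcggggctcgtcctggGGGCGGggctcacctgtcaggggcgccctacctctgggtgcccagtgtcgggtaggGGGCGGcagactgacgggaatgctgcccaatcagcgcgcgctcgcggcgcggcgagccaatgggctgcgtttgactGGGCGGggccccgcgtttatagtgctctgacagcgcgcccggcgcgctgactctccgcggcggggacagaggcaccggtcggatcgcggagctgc
Ephb4 promoter: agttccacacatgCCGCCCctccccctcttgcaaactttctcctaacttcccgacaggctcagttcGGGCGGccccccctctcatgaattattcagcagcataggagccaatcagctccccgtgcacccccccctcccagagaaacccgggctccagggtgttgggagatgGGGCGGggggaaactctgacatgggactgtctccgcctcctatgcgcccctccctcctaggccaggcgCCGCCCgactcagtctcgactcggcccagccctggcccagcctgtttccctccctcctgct

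Efnb2 held 3 matches to GGGCGG and Ephb4 held 4, and neither held CAGGAA. The windows had 72.3 and 64.7% G and C, against a median of 53.3% over all genes.

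No tested ephrin-A or EphA gene was called with TMM scaling. Efna1, the one tested ephrin-A and a ligand of EphA2, was at 48.6, 20.1, 28.5, 4.22 and 18.2 CPM in normal lung and 12.6, 0.582, 102, 18.2 and 2.93 CPM in metastases. Metastasis replicate 3 was the highest of all 10 libraries and metastasis replicate 2 the lowest (0.19 ± 1.00 SE, adjusted p = 0.924), and the sign turned without replicate 3 (-1.48). Epha2 was at 86.0, 69.7, 16.9, 38.9 and 29.8 CPM and 19.6, 82.6, 79.3, 15.6 and 27.5 CPM, with overlapping groups (-0.10 ± 0.68 SE, adjusted p = 0.938). Epha4, a receptor that binds ephrins of both classes, was at 112, 95.9, 87.7, 57.2 and 50.3 CPM in normal lung and 38.4, 14.2, 88.0, 4.50 and 2.15 CPM in metastases. Metastasis replicate 3 alone reached the normal range. The Epha4 value (log2 fold change -1.45 ± 0.77 SE, adjusted p = 0.205) passed without that library (-2.45, adjusted p = 0.0259) and with the replicate block (-2.54, adjusted p = 0.0116). Epha1 was at 1.21 to 18.01 and 3.47 to 69.3 CPM (1.48 ± 1.02 SE, adjusted p = 0.346), and its gene model overlaps that of Zyx.

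Robo4 (chromosome 9, 37401897 to 37415115, plus strand), the endothelial Robo receptor known for keeping vessels tight, was at 512, 378, 182, 224 and 185 CPM in normal lung. In metastases it was at 234, 64.9, 13.2, 57.7 and 21.8 CPM. Metastasis replicate 1 lay inside the normal range, and the other 4 lay below it. Robo4 fell 3.78-fold (log2 fold change -1.92 ± 0.60 SE, adjusted p = 0.0246), and turned positive with pan-endothelial scaling (0.54). The call was lost without normal replicate 1 (-1.66, adjusted p = 0.077) or metastasis replicate 2, 4 or 5 (adjusted p 0.0538 to 0.0573) and without metastasis replicates 4 and 5 together (-1.52, adjusted p = 0.126), and without metastasis replicate 1 the value was -2.94 (adjusted p = 0.000617). Its promoter window (chr9:37401722-37402021, plus strand, GRCm38.p6, RefSeq) is shown as that of the endothelial member of the family, with the same capitals.
Robo4 promoter: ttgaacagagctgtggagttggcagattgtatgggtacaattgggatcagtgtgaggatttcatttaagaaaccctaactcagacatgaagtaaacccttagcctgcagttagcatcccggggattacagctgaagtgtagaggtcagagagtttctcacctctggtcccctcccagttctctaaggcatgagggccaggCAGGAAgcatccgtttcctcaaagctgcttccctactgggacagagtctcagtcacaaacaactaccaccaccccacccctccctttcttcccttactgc

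The Robo4 window held 1 match to CAGGAA and none to GGGCGG, with 50.3% G and C and 2 CG pairs. Robo4 ends 553 bases from the end of Robo3, which lies on the opposite strand.

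Robo3, a receptor of commissural axons, was at 3.14, 2.50, 1.88, 7.56 and 8.83 CPM in normal lung and 107, 0.352, 0.645, 0.523 and 0.176 CPM in metastases. Metastasis replicate 1 carried nearly all of the Robo3 signal in its group, and it was also the metastasis library of highest Robo4. The Robo3 value (log2 fold change 2.19 ± 1.40 SE, adjusted p = 0.304) became -3.51 (adjusted p = 0.103) without that library. Slit1 and Slit3, secreted Robo ligands, were low and uneven, at 0.0235 to 13.1 and 0.0677 to 11.3 CPM for Slit1 and 1.51 to 25.6 and 0.406 to 41.4 CPM for Slit3. Neither was called (0.85 ± 1.61 and 0.74 ± 1.25 SE, adjusted p = 0.767 and 0.735), and Slit1 passed without normal replicate 4 (5.61, adjusted p = 0.044). Summed over the 3 Slit genes, the level was 0.262 to 8.74 FPKM in normal lung and 0.163 to 13.4 FPKM in metastases, against 95.5 to 158 and 6.74 to 106 FPKM for the 4 Robo genes. Robo4 made up nearly all of the Robo sum, at 94.8 to 158 FPKM in normal lung and 6.70 to 97.1 FPKM in metastases.

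Ntn4, a netrin of basement membranes, had the highest level of its family, at 155, 65.8, 136, 75.3 and 129 CPM in normal lung and 72.1, 9.09, 183, 4.56 and 7.26 CPM in metastases. The metastasis libraries fell into a pair within or above the normal range (replicates 1 and 3) and 3 far below it. It was not called (log2 fold change -1.02 ± 0.77 SE, adjusted p = 0.392), and passed without metastasis replicate 3 (-2.27, adjusted p = 0.0322) and with the replicate block (-2.43, adjusted p = 0.00655). Ntn1, the best studied axon guidance netrin, was at 50.2, 74.8, 5.58, 18.5 and 5.29 CPM and 1.73, 14.7, 1.44, 23.2 and 21.3 CPM, with overlapping groups (-1.31 ± 0.98 SE, adjusted p = 0.394). Ntn3 stayed at or below 9.89 CPM (3.29 ± 1.69 SE, adjusted p = 0.186), and its gene model overlaps that of Tbc1d24. Unc5b, the endothelial netrin receptor, was at 91.6, 67.4, 22.5, 25.1 and 9.80 CPM in normal lung and 8.80, 143, 12.6, 43.1 and 58.4 CPM in metastases, and metastasis replicate 2 was the highest library of all. Its log2 fold change was 0.29 ± 0.77 SE (adjusted p = 0.834), and that of Unc5a, at 0.270 to 20.3 and 0.305 to 12.0 CPM, was -0.62 ± 1.29 SE (adjusted p = 0.788).

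The other 29 genes did not pass the filter on low counts. They were Sema3d, Sema3e, Sema4a, Sema4f, Sema4g, Sema5b, Sema6c, Plxnb1, Efna2, Efna3, Efna4, Efna5, Efnb3, Epha3, Epha5, Epha6, Epha7, Epha8, Epha10, Ephb1, Ephb2, Ephb3, Ephb6, Slit2, Robo1, Robo2, Ntn5, Unc5c and Unc5d. Sema4f, Epha3 and Epha8 were at 0 in all 10 libraries, and 8 of the 29 had under 10 counts in total. Of the 21 with 10 counts or more, 19 had over 50% of their counts in 1 library and 8 had over 90%. Ephb1 had 1898 of its 2130 counts in normal replicate 4, and Efna5 had 2101 of 2325 in metastasis replicate 2. Efna4 had 272 of 430 in metastasis replicate 4. Sema3d had 428 of 865 in normal replicate 1 and 420 in metastasis replicate 2. The library with the most counts was a normal one for 10 of the 21 and a metastasis one for 11. Only in Efna4 and Epha10 was every metastasis library above every normal one: Efna4 was at 0 to 0.0306 CPM in normal lung and 0.0459 to 7.90 CPM in metastases, and Epha10, an Eph receptor, was at 0 to 0.0261 and 0.0353 to 7.04 CPM. With no filter on low counts, 26 of the 29 could be fitted, and edgeR called these 2 as risen (adjusted p = 0.0247 and 0.0384) and none as fallen, with 9 at an unadjusted p under 0.05. Their normal libraries were all under 3 counts, so no fold is given. Epha10 had 1 count in metastasis replicate 5, below the floor, and 2 counts in normal replicate 2. Its separation of the groups thus rests on the scaling of single reads. Efna4 had 4, 3 and 4 counts in metastasis replicates 1, 2 and 5.

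Ratios of 2 genes within a library were compared because a ratio hardly depends on the scaling factor of the library. Of 15 pairs listed, 8 had both genes tested, and 2 differed between groups by an exact permutation test (two-sided, over all splits of 5 against 5, where 0.00794 is the smallest p). The log2 ratio of Sema7a to its receptor gene Plxnc1 was 2.86 ± 1.31 in normal lung and 0.60 ± 1.03 in metastases (each ± the SD over n = 5; difference -2.27 ± 0.75 SE, exact p = 0.00794, adjusted 0.0317), lower in all 5 metastasis libraries than in any normal one. The ratio of Sema3g, the arterial class 3 member, to Sema3a was -2.12 ± 2.80 in normal lung and -7.29 ± 1.41 in metastases (difference -5.18 ± 1.40 SE, exact p = 0.00794, adjusted 0.0317), also without overlap. Neither pair passed with FPKM + 0.1 in place of CPM + 0.5 (adjusted exact p = 0.148 and 0.0635). The groups of Sema3g to Sema3a still did not overlap there, so its unadjusted exact p was again the smallest possible. After adjustment that p passes only if another pair reaches it too, so the miss of Sema3g to Sema3a does not show a weaker difference.

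The ratio of the arterial ligand Efnb2 to the venous receptor Ephb4 was 3.07 ± 1.11 in normal lung and 3.02 ± 0.84 in metastases (difference -0.048 ± 0.62 SE, exact p = 0.937). It ran from 1.61 to 4.55 in normal lung and from 2.34 to 4.46 in metastases. With an SE of 0.62 on the difference, the test could miss a small shift. Efnb2 to Efnb1 differed by 0.40 ± 0.58 SE (adjusted exact p = 0.688) and Efna1 to Epha2 by -0.75 ± 1.40 SE (0.717). Sema6a to Plxna2 differed by -0.94 ± 0.59 SE (adjusted exact p = 0.33) and Ntn4 to Unc5b by -2.33 ± 1.78 SE (0.33). Plxnd1 to Plxna1 was at -2.71 ± 0.65 in normal lung and -1.32 ± 1.27 in metastases, a difference of 1.39 ± 0.64 SE that did not pass (adjusted exact p = 0.19). In that pair metastasis replicate 3 lay among the normal libraries, and without it the difference was 1.87 (adjusted exact p = 0.0423).

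**Figure D4:**
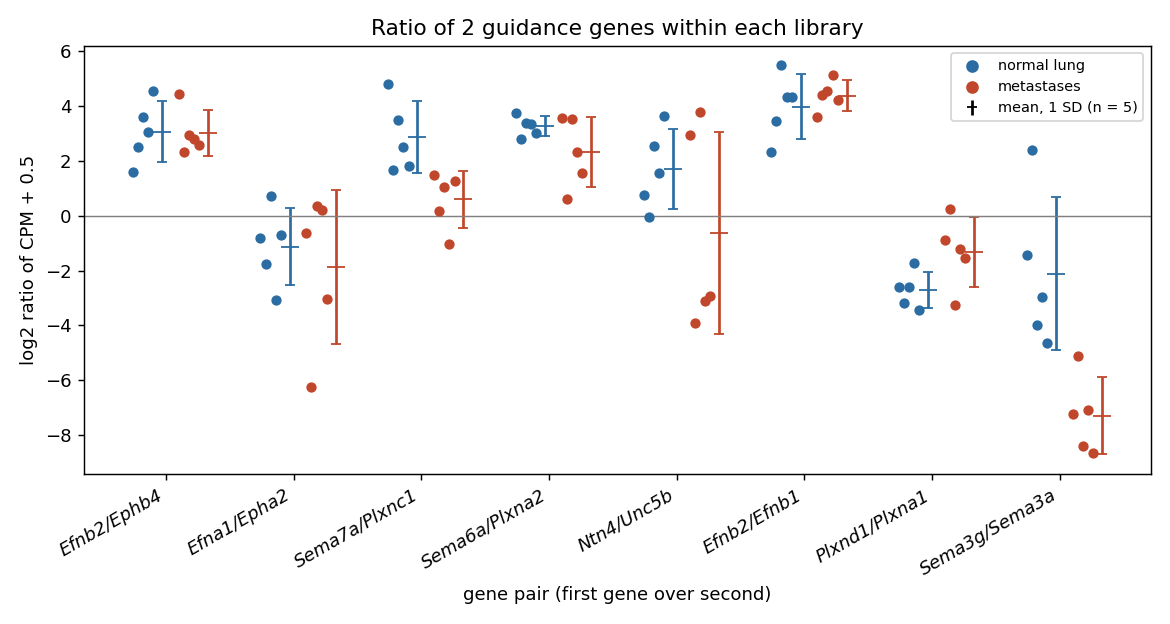
Log2 ratio of 2 guidance genes within each library (TMM-scaled CPM + 0.5), with points for the 5 normal lung and 5 metastasis libraries in replicate order and bars for the mean and 1 SD. Sema7a/Plxnc1 and Sema3g/Sema3a do not overlap between groups, while Efnb2/Ephb4 overlaps between groups.

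Other genes of these pathways were read from lists of coreceptors, further ligands and cytoplasmic signalling proteins. Of 98 listed, 84 were tested, 15 rose (17.9%) and 7 fell (8.33%), beside 12.0 and 8.22% of all tested genes. With pan-endothelial scaling all 7 falls turned positive and none passed as a fall (Nrp1 0.20, Itga1 0.72, Srgap1 0.024, Dpysl2 0.74), and Arap3 passed as a rise (1.32, adjusted p = 0.0248). Of 8 tested coreceptors 4 rose and 2 fell, given as mean ± SD over the 5 libraries of each group. Nrp1, the neuropilin of Sema3a, fell from 3284 ± 799.8 to 717 ± 852 CPM (log2 fold change -2.19 ± 0.54 SE, adjusted p = 0.00503), without overlap. Itga1, a collagen-binding integrin subunit, fell from 965 ± 125 to 268 ± 142 CPM (log2 fold change -1.85 ± 0.39 SE, adjusted p = 0.00154). Met, a receptor tyrosine kinase that associates with class B plexins, rose from 5.99 ± 3.78 to 340.2 ± 92.5 CPM (log2 fold change 5.83 ± 0.56 SE, adjusted p = 1.29e-07), and Neo1, the netrin and RGM receptor neogenin, rose from 3.17 ± 2.08 to 136 ± 94.4 CPM (log2 fold change 5.42 ± 0.75 SE, adjusted p = 1.86e-05). Nrp2, the neuropilin preferred by Sema3f and Sema3g, rose from 20.5 ± 14.0 to 234 ± 48.3 CPM (log2 fold change 3.51 ± 0.54 SE, adjusted p = 6.31e-05), and L1cam, an adhesion molecule that joins neuropilin-1, rose from 22.9 ± 32.2 to 231 ± 154 CPM (log2 fold change 3.34 ± 0.71 SE, adjusted p = 0.00158); these 2 were chosen after their values were seen. The 2 neuropilins moved in opposite directions, each without overlap between groups. For Nrp1, metastasis replicate 3 (2194 CPM) came close to the lowest normal library (2308 CPM), and the other metastasis libraries were at 146 to 689 CPM. Fibroblast and macrophage markers rose in the same libraries, and their part in these rises was not tested.

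Of 9 tested genes of further ligands 4 rose by edgeR. Flrt2, a ligand of Unc5 receptors, rose from 17.9 ± 14.6 to 206 ± 81.8 CPM (log2 fold change 3.53 ± 0.67 SE, adjusted p = 0.000564), and Sdc2, a heparan sulphate proteoglycan, rose from 2.78 ± 4.33 to 61.4 ± 58.2 CPM (log2 fold change 4.47 ± 1.09 SE, adjusted p = 0.00468). Sdc1, another heparan sulphate proteoglycan, rose from 3.39 ± 5.58 to 53.8 ± 41.8 CPM (log2 fold change 3.99 ± 1.14 SE, adjusted p = 0.0146). Flrt2 and the remaining rise, Rgma (5.99), were outside the naming rule and were chosen after their values were seen. Of 67 tested cytoplasmic genes 7 rose and 5 fell, shares of 10.4 and 7.46%. Pak1, a kinase activated by Rac, rose from 0.872 ± 0.207 to 77.2 ± 41.9 CPM (log2 fold change 6.47 ± 0.82 SE, adjusted p = 5.73e-06), and Crmp1, a collapsin response mediator, rose from 0.517 ± 0.232 to 45.5 ± 15.8 CPM (log2 fold change 6.46 ± 0.97 SE, adjusted p = 4.99e-05). Srgap1, a GTPase-activating protein that acts below Robo, fell from 382 ± 177 to 71.9 ± 63.5 CPM (log2 fold change -2.41 ± 0.58 SE, adjusted p = 0.00443). Dpysl2, another collapsin response mediator, fell from 677 ± 355 to 166 ± 74.4 CPM (log2 fold change -2.02 ± 0.44 SE, adjusted p = 0.0018). The other 3 falls were Dock1 (-1.90), Vav3 (-1.82) and Arap3 (-1.29), also chosen after their values were seen. Rac1 and Rhoa, the GTPases on which these pathways converge, were not called (-0.38 ± 0.38 and -0.50 ± 0.39 SE, adjusted p = 0.551 and 0.417).

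Scaling to the pan-endothelial genes asks how the guidance genes compare with endothelial RNA instead of with all RNA. Under it 0.152% of all tested genes fell and 61.4% rose. The 12 genes that fell with TMM lay between -1.77 and 1.50, with a median of 0.024, and all 12 were below the median of all tested genes (2.85). Sema3c (0.0063), Efnb2 (0.042), Ephb4 (-0.046) and Sema6a (-0.12) were nearest to 0, and Sema3b (-1.77), Sema3g (-1.38) and Efnb1 (-0.79) were lowest, none of them called. Plxna1 rose on this scale (1.50, adjusted p = 0.0156). Sema3a (5.63, adjusted p = 1.24e-06) and Sema4d (6.35, adjusted p = 0.000104) rose on both scales. Of the 37 tested guidance genes 18 rose on this scale, and 21 were below the median of all genes.

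**Figure D5:**
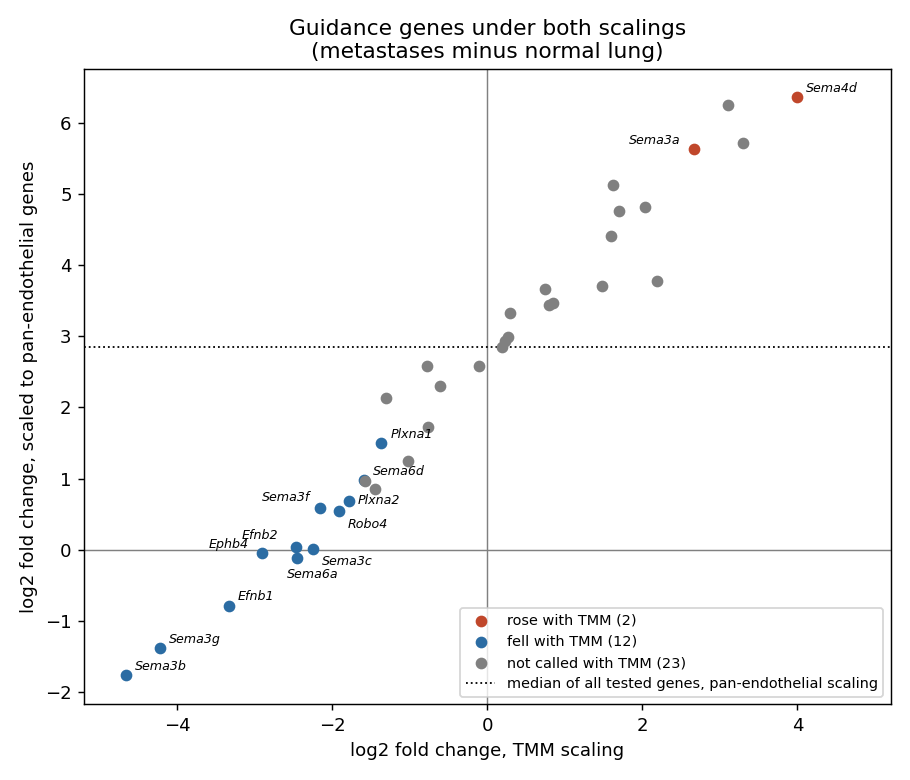
Log2 fold change of the 37 tested guidance genes with TMM scaling (horizontal) against that on the pan-endothelial scale (vertical), coloured by the call with TMM; the dotted line is the median of all tested genes on the vertical scale, 2.85. The 12 genes that fell with TMM lie between -1.77 and 1.50 on the vertical scale, and Sema3a and Sema4d lie above the dotted line.

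Libraries 1 and 2 stood apart from libraries 3 to 5 for several members in normal lung, so both sets were also fitted alone. In libraries 1 and 2 alone, where 1.60% of 12576 tested genes fell and 3.87% rose, 6 guidance genes fell and none rose. The 6 falls were Sema3f (-2.70), Sema3g (-5.11), Plxna1 (-2.16), Efnb1 (-3.47), Efnb2 (-2.29) and Ephb4 (-3.37). In libraries 3 to 5 alone, where 6.39% of 11933 fell and 9.29% rose, 6 fell and 1 rose. These were Sema3c (-2.99), Sema6a (-2.78), Sema6d (-1.92), Plxna2 (-2.46), Efnb2 (-2.71) and Robo4 (-2.68), and Sema3a (2.94). All 14 called genes had the same sign in both sets, and the differences between sets were not tested.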

How the data were processed

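RNA of sorted CD31+/CD45- cells was compared between 5 normal lung and 5 metastasis libraries, grouped by the sample titles. Libraries were amplified and sequenced as paired 100 bp reads, per the labels' protocols. Per the submitters' processing notes, the build was GRCm38 (mm10) and the tools were HTSeq 0.6.1, TopHat2 2.0.13, DESeq2 1.6.3 and Cufflinks 2.2.1. Which annotation was counted, and whether by strand, is not given in the sources used here. The authors deposited raw counts per gene, and a table of FPKM, which was used for levels between genes and as an alternative. Reads assigned to no gene (55.4 to 73.7%) stayed out of library sizes.

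Low genes among the 24538 were removed by filterByExpr (default settings), and the rest were scaled by TMM and compared with edgeR 4.0.16 in R 4.3.3 (quasi-likelihood F test, two-sided, robust, no covariate), with Benjamini-Hochberg adjustment over 11823 tested genes and a threshold of 0.05. "Rose", "fell" and "called" mean past it. SE is the size of the log2 fold change divided by the root of its F statistic. The common biological coefficient of variation was 1.01. Ratios used log2(CPM + 0.5) and an exact permutation test. The members, gene lists, pairs and alternatives were chosen with earlier results of these data known. Named were all called members, the 2 of highest FPKM per family, genes of computed pairs, the 2 largest called partner changes each way per list with 10 CPM or more, and the 2 most abundant markers per list; other members are accounted for. 1 further marker list is not reported here. Positions are from GENCODE M21 (GRCm38) and promoters from RefSeq (GRCm38.p6). Protein sequences were not used here. The labels do not say that a replicate number is a shared animal, batch or day, so same-numbered libraries were not paired. Their deviations from the group means correlated at -0.0073 to 0.17, which does not settle the question.

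Alternatives were DESeq2 1.42.0, other scalings and filters, limma 3.58.1 on log2(FPKM + 1) and log2(FPKM + 0.1), a threshold of 0.01, a replicate block, a term for libraries 1 and 2 against 3 to 5, these sets alone, and leaving out libraries. Figures were drawn with matplotlib 3.10.9.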

Additional observations from a re-analysis of the deposited data

Results flagged for a closer look

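Of 74 groups of 5 libraries examined, 4 held a library set apart from the other 4 by most of the range, a gap that chance gives in about 1 in 20 groups. Plxna1 was at 453 CPM in metastasis replicate 3 and at 226.3 to 270.2 CPM in the other metastasis libraries. Plxnb3 was at 3.12 CPM in normal lung replicate 2 and at or below 0.339 CPM in the other normal libraries. Slit1 was at 13.12 CPM in normal lung replicate 4 and at or below 0.2701 CPM in the others. Robo3 was at 107.4 CPM in metastasis replicate 1 and at or below 0.6451 CPM in the other metastasis libraries.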

How the results depend on the processing

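TMM calls (2 rises, 12 falls) were all kept with DESeq2, RLE scaling and both other filters, which called 5, 2, 4 and 2 guidance genes as risen; the 4 without a filter included Efna4 and Epha10. A threshold of 0.01 left 1 rise and 8 of the falls. Pan-endothelial scaling gave 18 rises and 0 falls among guidance genes, and 62 and 0 among partner genes. Libraries 1 and 2 alone gave 0 rises and 6 falls (partners 8 and 3), libraries 3 to 5 alone 1 and 6, and leaving out metastasis libraries 4 and 5 gave 6 falls (partners 4). limma on FPKM gave 12 partner falls with either pseudocount, where TMM gave 7. The ratios that differed, 2, were 0 with FPKM + 0.1, where Sema3g/Sema3a still did not overlap between groups. The median of all genes was 0.32 with library totals and -0.13 with log2(FPKM + 0.1), against 0.06. Leaving out each library in turn gave 1 to 3 rises and 10 to 13 falls, 14 to 18 and 5 to 11 among partners, and 0 to 3 ratios. The lowest rise count was without metastasis replicate 2, and 11 partner falls came without metastasis replicate 1. No ratio passed without normal replicate 1 or 2 or metastasis replicate 1, 2, 4 or 5. Sema7a/Plxnc1 and Sema3g/Sema3a stay without overlap between groups whichever library is left out. With 1 library fewer the exact p moves in coarse steps near the threshold. Passing or not therefore does not show that these 2 ratios depend on any 1 library.

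With the replicate block, 10 of the 12 falls were kept and 3 were gained (Sema7a, Epha4 and Ntn4), Plxnb2 was gained as a rise, and 12 partner genes fell; Efna1 was at -1.18, Slit3 at -1.80 and Robo3 at -2.50. Pairing was not shown by the correlations, and 3 of the 5 normal libraries matched their own number best, as a hint from the data only.

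These log2 fold changes changed sign; the cause was not tested. With pan-endothelial scaling, Sema3c was at 0.0063, Sema3f 0.58, Sema5a 1.73, Sema6b 2.58, Sema6d 0.98, Sema7a 0.97, Plxna1 1.50, Plxna2 0.69, Efnb2 0.042, Epha2 2.58, Epha4 0.85, Robo4 0.54, Ntn1 2.13, Ntn4 1.25 and Unc5a 2.30. With log2(FPKM + 1), Sema6b was at 0.087, Efna1 -1.23 and Unc5a 0.0018. With log2(FPKM + 0.1), Plxnb3 was at -0.014, Efna1 -1.62, Slit3 -0.27, Robo3 -0.37 and Unc5b -0.0037. With the set term, Efna1 was at -0.091, Epha2 0.069 and Robo3 -1.49. In libraries 1 and 2 alone, Efna1 was at -2.36 and Unc5b -0.052. In libraries 3 to 5 alone, Sema6b was at 0.068, Plxnd1 -0.19, Epha2 0.50, Slit1 -0.070, Slit3 -0.097, Robo3 -3.77, Ntn1 0.63 and Unc5a 0.35, and the ratios Efna1/Epha2 differed by 0.19 and Efnb2/Efnb1 by -0.085. Without metastasis libraries 4 and 5, Plxnb3 was at -2.06 and Epha2 0.29. Epha2 was at 0.019 with DESeq2, 0.019 with RLE scaling and 0.081 with library totals. Leaving out each library gave -0.17 to 0.54 for Plxna4, -0.28 to 0.42 for Plxnd1, -1.48 to 0.59 for Efna1, -0.43 to 0.18 for Epha2, -3.51 to 2.52 for Robo3, -1.40 to 0.34 for Unc5a and -0.47 to 0.72 for Unc5b, and -0.41 to 0.32 for the ratio Efnb2/Ephb4, -1.30 to 0.35 for Efna1/Epha2 and -0.013 to 0.78 for Efnb2/Efnb1. None of these reversed values passed the test except Plxna1 and Epha2 with pan-endothelial scaling.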
